A study of Mus musculus with 12 samples.

Results

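The enzymes that build triglyceride in the liver were examined as a group of 10 genes, Acsl1, Acsl3, Acsl5, Gpam, Agpat2, Agpat3, Lpin1, Lpin2, Dgat1 and Dgat2, out of 46078 genes in the count table. They were listed by name for their place in the pathway, by a rule that uses no measured value but with earlier results of these data known, and all 10 passed the filter on low counts. The libraries were poly(A) RNA-seq of whole liver from male C57BL/6J mice (C57BL/6 in the labels), aged 21 weeks, with obesity induced by a high fat diet. Of these, 4 mice had vertical sleeve gastrectomy (VSG), which removes most of the stomach. A further 4 had sham surgery followed by food restriction that matched their weight to the VSG group (Sham-WM), and 4 had sham surgery and returned to unrestricted feeding (Sham-Ad lib). No lean or unoperated mice are among the 12 libraries. All mice had been made obese by diet and were then operated on, and the Sham-WM mice followed the weight of the VSG mice, so at sampling these groups did not carry the full weight of Sham-Ad lib. Food was restricted in Sham-WM to match weight, so that group is a control for weight and not for intake.

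Triglyceride is made in hepatocytes mainly by the glycerol-3-phosphate pathway. Long-chain acyl-CoA synthetases (Acsl) first activate fatty acids to acyl-CoA. Gpam places the first acyl chain on glycerol-3-phosphate, Agpat enzymes add the second to give phosphatidic acid, lipins remove the phosphate to give diacylglycerol, and Dgat enzymes add the last chain. Phosphatidic acid and diacylglycerol are also the starting points of phospholipid synthesis.

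Between VSG and Sham-WM, 5 of the 10 enzymes were lower in VSG and none was higher (edgeR quasi-likelihood test, Benjamini-Hochberg adjusted p under 0.05 over 13054 genes). They were the 3 acyl-CoA synthetases, Gpam and Agpat2, which with Agpat3 serve the steps up to phosphatidic acid. Gpam fell the most, by 3.82-fold, and the other 4 fell by 1.65-fold to 2.1-fold. Of all genes tested, 26.9% were called in this comparison and 11.9% were lower in VSG. Agpat3, both lipins and both Dgat enzymes did not pass the test. Against Sham-Ad lib, Agpat2 rose in Sham-WM (1 of 10, where 6.99% of all genes were called). In VSG against Sham-Ad lib edgeR called 0 of 10, where 0.751% of all genes were called, with 5 of 10 at an unadjusted p under 0.05 and 4 called by DESeq2 (8.4% of the genes it tested). This background was itself unstable: of 98 genes called, leaving out 1 library gave from 0 (without VSG mouse 1F, for example) to 1089 (without VSG mouse 18F).

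These groups rest on the animal number that a library's name shares with a sample's title. A second label of the samples sets the library names, in alphabetical order, against the titles and so pairs them otherwise, and with groups drawn from it edgeR called 0 of the 10 enzymes, and 0 of 13054 genes, in each of the 3 comparisons. At an unadjusted p under 0.05 that grouping gave 2 enzymes for VSG against Sham-Ad lib, 1 for Sham-WM against Sham-Ad lib and 0 for VSG against Sham-WM, beside 3.56%, 5.48% and 1.21% of all genes. Index numbers in the library names also run in an unbroken block for each group, so anything that follows these numbers cannot be told apart from the treatment. Total counts per library lay between 15122520 and 19384076. The lowest count of any enzyme in any library was 272, for Dgat1, which gives a counting error of about 6.06%, beside coefficients of variation of 7.98% to 12.1% between the mice of a group for that gene. For the other enzymes the counting error at the lowest count was 1.04% to 5.89%. Intervals, SEs and p-values of edgeR below rest on the spread of mice within groups, 4 mice a group. That spread was estimated over all 12 libraries together, with information shared across genes. They do not describe the spread of any 1 group.

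The promoters of the enzymes called lower in VSG than in Sham-WM are shown here. These genes share that call, and their values against Sham-Ad lib differed, as given below. Each window runs from 250 bases before to 50 after an annotated start, from RefSeq on GRCm38.p6, 5′ to 3′ on the gene's strand. Capitals mark matches on either strand to GGGCGG (a GC box, bound by Sp1), to CCAAT (the core bound by NF-Y) and to TCACNCCAC (a sterol regulatory element), and adjoining or overlapping matches run together. The window of Gpam is the first of 2 in the table, and both windows of Acsl1 are given.
Gpam promoter, chr19:55127189-55127488, - strand: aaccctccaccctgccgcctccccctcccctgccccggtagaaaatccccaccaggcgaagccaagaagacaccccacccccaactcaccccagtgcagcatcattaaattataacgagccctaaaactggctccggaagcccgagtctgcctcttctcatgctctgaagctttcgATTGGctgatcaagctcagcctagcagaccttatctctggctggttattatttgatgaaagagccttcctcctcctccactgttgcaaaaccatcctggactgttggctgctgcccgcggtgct
Acsl1 upstream promoter, chr8:46470787-46471086, + strand: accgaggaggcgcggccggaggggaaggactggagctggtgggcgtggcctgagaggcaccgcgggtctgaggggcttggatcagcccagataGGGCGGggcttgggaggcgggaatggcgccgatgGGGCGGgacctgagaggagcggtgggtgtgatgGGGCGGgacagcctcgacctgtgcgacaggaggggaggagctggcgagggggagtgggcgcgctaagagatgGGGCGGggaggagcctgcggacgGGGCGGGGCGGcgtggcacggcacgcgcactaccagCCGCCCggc
Acsl1 downstream promoter, chr8:46490716-46491015, + strand: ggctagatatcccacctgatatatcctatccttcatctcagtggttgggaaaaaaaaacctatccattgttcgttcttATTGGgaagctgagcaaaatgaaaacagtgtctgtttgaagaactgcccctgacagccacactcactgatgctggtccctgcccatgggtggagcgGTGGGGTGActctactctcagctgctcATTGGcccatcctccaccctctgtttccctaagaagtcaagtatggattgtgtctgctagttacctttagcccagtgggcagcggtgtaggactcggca
Acsl3 promoter, chr1:78657575-78657874, + strand: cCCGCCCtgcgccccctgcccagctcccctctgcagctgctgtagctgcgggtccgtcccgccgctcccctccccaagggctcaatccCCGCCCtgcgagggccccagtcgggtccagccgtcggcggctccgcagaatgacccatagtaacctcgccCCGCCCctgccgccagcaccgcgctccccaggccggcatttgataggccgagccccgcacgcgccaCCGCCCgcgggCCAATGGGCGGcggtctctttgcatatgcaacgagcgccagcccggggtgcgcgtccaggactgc
Acsl5 promoter, chr19:55253119-55253418, + strand: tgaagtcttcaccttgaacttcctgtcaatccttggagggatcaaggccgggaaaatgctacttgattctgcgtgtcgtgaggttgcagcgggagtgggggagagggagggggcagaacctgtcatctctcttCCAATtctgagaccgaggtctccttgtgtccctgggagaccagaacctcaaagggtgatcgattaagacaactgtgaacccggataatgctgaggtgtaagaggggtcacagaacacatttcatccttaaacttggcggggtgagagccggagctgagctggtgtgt
Agpat2 promoter, chr2:26604368-26604667, - strand: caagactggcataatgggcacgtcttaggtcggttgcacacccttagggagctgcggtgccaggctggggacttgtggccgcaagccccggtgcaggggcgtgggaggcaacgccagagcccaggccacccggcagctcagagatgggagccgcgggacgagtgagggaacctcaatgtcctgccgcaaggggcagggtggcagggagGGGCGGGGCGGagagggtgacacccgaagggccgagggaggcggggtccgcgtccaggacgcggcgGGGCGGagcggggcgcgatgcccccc

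A CCAAT match was present in the first window of Gpam, the downstream window of Acsl1 and the windows of Acsl3 and Acsl5. The upstream window of Acsl1 and that of Agpat2 held none. CCAAT was found in 5 of the 12 windows of the enzymes, beside 37.4% of 32851 mouse windows of this length. GGGCGG was found in 6 of the 12, beside 35.7%. In the downstream window of Acsl1, TCACNCCAC matched 76 bases before the start, and 1.24% of all windows held it. The GC content was 55.7% for the first window of Gpam and 68.0% for its second, which is not printed. It was 53.0% for Acsl5, 74.0% for Acsl3, 72.0% for Agpat2 and, for Acsl1, 74.0% upstream and 50% downstream. The median over all windows was 52.7%. The RefSeq table held 12 windows for 8 of the 10 enzymes, without Dgat1 and Dgat2. Of the windows not printed, those of Lpin2 held both of these motifs and also CACGTG (an E-box, found in 7.15% of all windows), the second window of Gpam held a GC box, and those of Lpin1 and Agpat3 held no match. A match shows letters only, and binding was not measured.

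Acyl-CoA synthetases commit fatty acids to use in the cell. Acsl1 is the main isoform of liver and fat, Acsl5 sits on mitochondria and the endoplasmic reticulum, and Acsl3 sits on the endoplasmic reticulum and on lipid droplets. The transcripts of all 3 were lower in every VSG mouse than in every Sham-WM mouse, a separation without overlap that 26.2% of all genes showed in one direction or the other. Levels are given as CPM, counts scaled to the size of the library after TMM normalization, with the mice of each group named by their number.

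Acsl5 (ENSMUSG00000024981, chr19:55251938-55297720, + strand, mm10) stood at 232, 329, 291 and 289 CPM in VSG mice 1F, 8F, 11F and 18F. It stood at 671, 753, 485 and 487 CPM in Sham-WM mice 2F, 9F, 15F and 16F, and at 480.0, 464, 449 and 494 CPM in Sham-Ad lib mice 3F, 4F, 6F and 10F. The VSG values lay below both other groups without overlap, and the Sham-WM mice split into a higher and a lower pair, the lower pair within the Sham-Ad lib range. The level fell in VSG against Sham-WM by 1.07 on the log2 scale (SE 0.16, edgeR adjusted p = 0.00108). Against Sham-Ad lib the log2 fold change was -0.73 (SE 0.16), with an edgeR adjusted p of 0.0513 that did not pass and a DESeq2 adjusted p of 0.000562 that did.

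Acsl1 (ENSMUSG00000018796, chr8:46471037-46536051, + strand, mm10) was at 548, 798, 1038 and 895 CPM in VSG mice 1F, 8F, 11F and 18F. The Sham-WM mice 2F, 9F, 15F and 16F had 1367, 1678, 1561 and 1621 CPM, and the Sham-Ad lib mice 3F, 4F, 6F and 10F had 1678, 737, 1734 and 1625 CPM. VSG and Sham-WM did not overlap, whereas the Sham-Ad lib mouse 4F lay within the VSG range, far below the other 3 of its group. VSG was lower than Sham-WM by 1.9-fold (log2 fold change -0.93, SE 0.25, edgeR adjusted p = 0.0181). Without VSG mouse 1F the edgeR adjusted p was 0.0508, and with 2 RUVs factors of unwanted variation in the fit the log2 fold change was -0.31 (edgeR adjusted p = 0.465). Against Sham-Ad lib the log2 fold change was -0.82 (SE 0.25, edgeR adjusted p = 0.0891), and without mouse 4F the edgeR adjusted p became 0.00865.

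Acsl3 (ENSMUSG00000032883, chr1:78657825-78707743, + strand, mm10) had the lowest counts of the 3. Its values were 31.2, 27.8, 24.5 and 16.4 CPM in VSG mice 1F, 8F, 11F and 18F, and 56.2, 61.8, 48.7 and 34.8 CPM in Sham-WM mice 2F, 9F, 15F and 16F. The Sham-Ad lib mice 3F, 4F, 6F and 10F, at 41.5, 39.0, 24.3 and 32.8 CPM, overlapped both. The fall in VSG against Sham-WM was 2.02-fold (log2 fold change -1.01, SE 0.22, edgeR adjusted p = 0.0067), and neither comparison with Sham-Ad lib passed (log2 fold change -0.46 for VSG and 0.55 for Sham-WM). Utp14b, a gene for ribosomal RNA processing that lies within Acsl3 on the same strand, shares 244 exon bases with it. How reads of the shared bases were counted is not given in the sources used here. Utp14b itself fell in VSG against Sham-WM (log2 fold change -1.63, edgeR adjusted p = 0.000148). Zdhhc6 overlaps 404 exon bases of Acsl5 on the opposite strand, and its log2 fold change between VSG and Sham-WM was 0.25 (edgeR adjusted p = 0.0853).

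**Figure D1:**
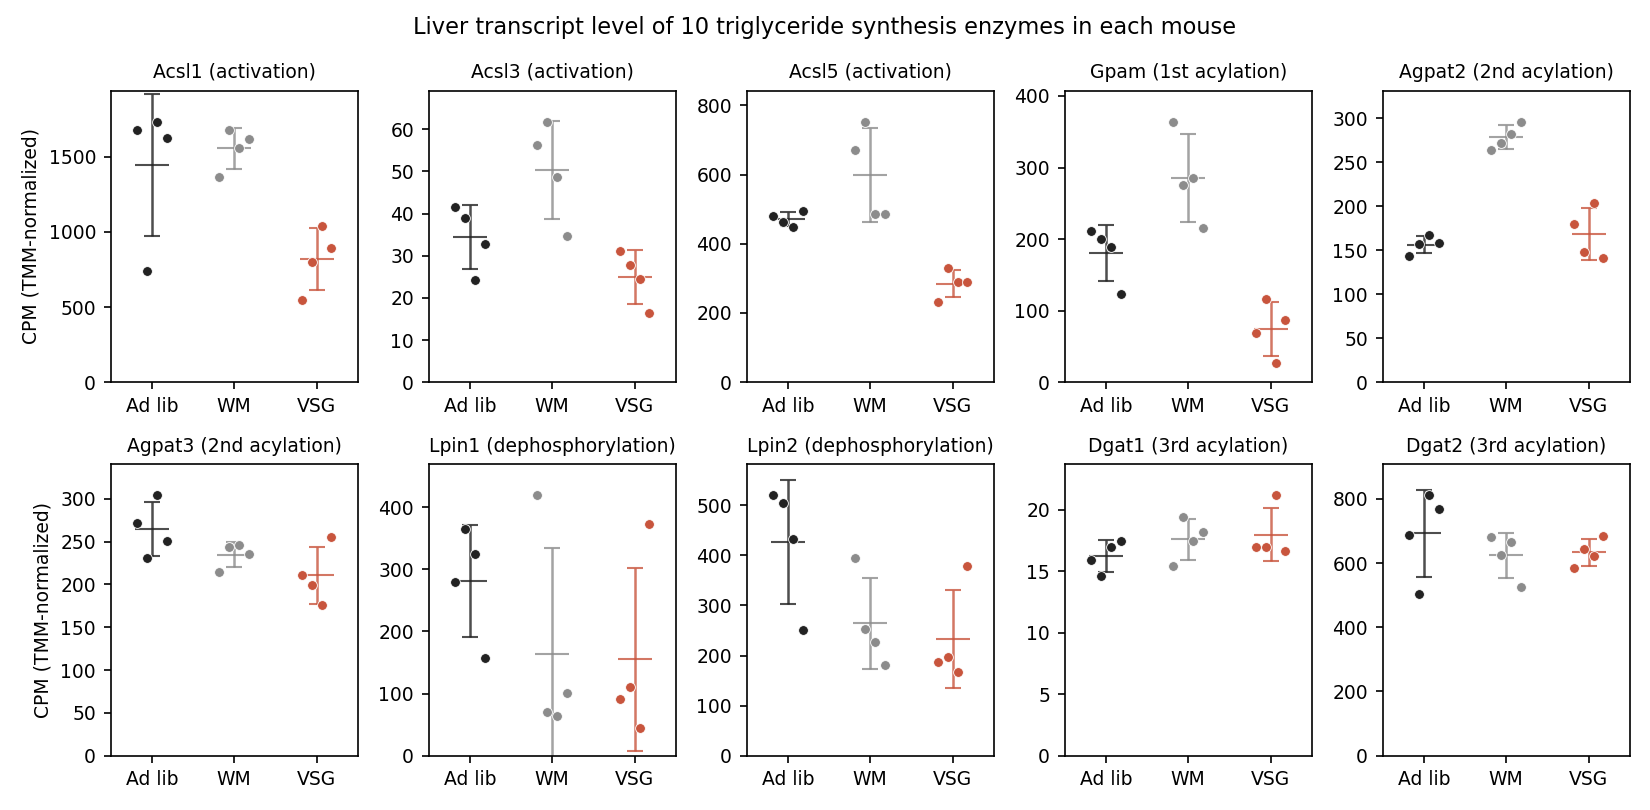
Transcript level of each enzyme (y axis, TMM-normalized CPM, from 0) in each mouse (points) of the Sham-Ad lib, Sham-WM and VSG groups, with the group mean and SD (4 mice a group, the lower bar of Lpin1 in Sham-WM is cut at 0). The VSG points of Acsl1, Acsl3, Acsl5, Gpam and Agpat2 lie below all Sham-WM points, and the points of Dgat1 and Dgat2 overlap between all groups.

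Gpam (ENSMUSG00000024978, chr19:55067268-55127238, - strand, mm10) encodes mitochondrial glycerol-3-phosphate acyltransferase, which catalyses the committed step of the pathway. Its values were 68.1, 116, 26.4 and 87.1 CPM in VSG mice 1F, 8F, 11F and 18F, 364, 275, 286 and 215 CPM in Sham-WM mice 2F, 9F, 15F and 16F, and 211, 199.6, 189 and 123 CPM in Sham-Ad lib mice 3F, 4F, 6F and 10F. It was the sole enzyme of the 10 for which none of the 3 groups overlapped, in the order Sham-WM, Sham-Ad lib, VSG, and mouse 11F was the lowest. The lowest Sham-WM value was close to the highest Sham-Ad lib value, and the highest VSG value to the lowest Sham-Ad lib value. Its isozymes Gpat2, Gpat3 and Gpat4 did not pass between VSG and Sham-WM (edgeR adjusted p = 0.518, 0.0742 and 0.471). Gpat4 stood at 184 ± 23.4 CPM in VSG, 201 ± 16.5 in Sham-WM and 224 ± 28.7 in Sham-Ad lib, above Gpam in VSG.

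Gpam fell in VSG against Sham-WM by 1.93 on the log2 scale (SE 0.34, 95% interval -2.67 to -1.2, edgeR adjusted p = 0.00235). Against Sham-Ad lib the log2 fold change was -1.28 in VSG (SE 0.34), which did not pass with edgeR (adjusted p = 0.0655) and passed with DESeq2 (adjusted p = 0.00529). In Sham-WM against Sham-Ad lib it was 0.66 (SE 0.33, edgeR adjusted p = 0.274). The latter 2 comparisons share the Sham-Ad lib mice. Gpam and Acsl5 are 124.7 kb apart on chromosome 19, with Tectb, Gucy2g and Mir6715 between them, none of which had enough counts to be tested.

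Agpat2 and Agpat3 acylate lysophosphatidic acid, and loss of AGPAT2 causes congenital lipodystrophy in people. Agpat2 (ENSMUSG00000026922, chr2:26593057-26604417, - strand, mm10) was at 264, 272, 282 and 296 CPM in Sham-WM mice 2F, 9F, 15F and 16F. The Sham-Ad lib mice 3F, 4F, 6F and 10F had 143, 157, 167 and 158 CPM, and the VSG mice 1F, 8F, 11F and 18F had 179.8, 148, 204 and 141 CPM. All Sham-WM values lay above all others, and those of VSG and Sham-Ad lib overlapped.

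Agpat2 rose in Sham-WM against Sham-Ad lib by 1.78-fold (log2 fold change 0.83, SE 0.12, edgeR adjusted p = 0.00181), the 1 enzyme of 10 called in that comparison, in which 3.53% of all genes were called higher in Sham-WM. VSG was 1.65-fold lower than Sham-WM (log2 fold change -0.73, SE 0.12, edgeR adjusted p = 0.00184). Its difference between VSG and Sham-Ad lib had an interval of -0.15 to 0.37 on the log2 scale (edgeR adjusted p = 0.605). Its exons share 64 bases with Egfl7 on the opposite strand.

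Agpat3 (ENSMUSG00000001211, chr10:78269178-78352489, - strand, mm10) ranged from 176 to 255 CPM in VSG, from 214 to 246 CPM in Sham-WM and from 231 to 304 CPM in Sham-Ad lib, so that the groups overlapped. Its log2 fold change was -0.16 between VSG and Sham-WM (95% interval -0.43 to 0.12, edgeR adjusted p = 0.377) and -0.33 between VSG and Sham-Ad lib (edgeR adjusted p = 0.147). The 2 Agpat genes thus differed in their values at the same step, and the ratio between them was tested within each mouse. Counts per kilobase of exon of Agpat2 were 4.34 ± 0.254 times those of Agpat3 in Sham-WM, 2.18 ± 0.26 times in Sham-Ad lib and 3.03 ± 0.921 times in VSG (SD, n = 4). The ratio was higher in all Sham-WM mice than in all Sham-Ad lib mice, by 1.0 on the log2 scale of counts (exact permutation test, two-sided, p = 0.0286, the smallest that 4 mice against 4 allow, adjusted p = 0.343 over 12 tests). A single ratio could therefore not pass after adjustment whatever its values, and not passing says nothing about a difference.

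**Figure D2:**
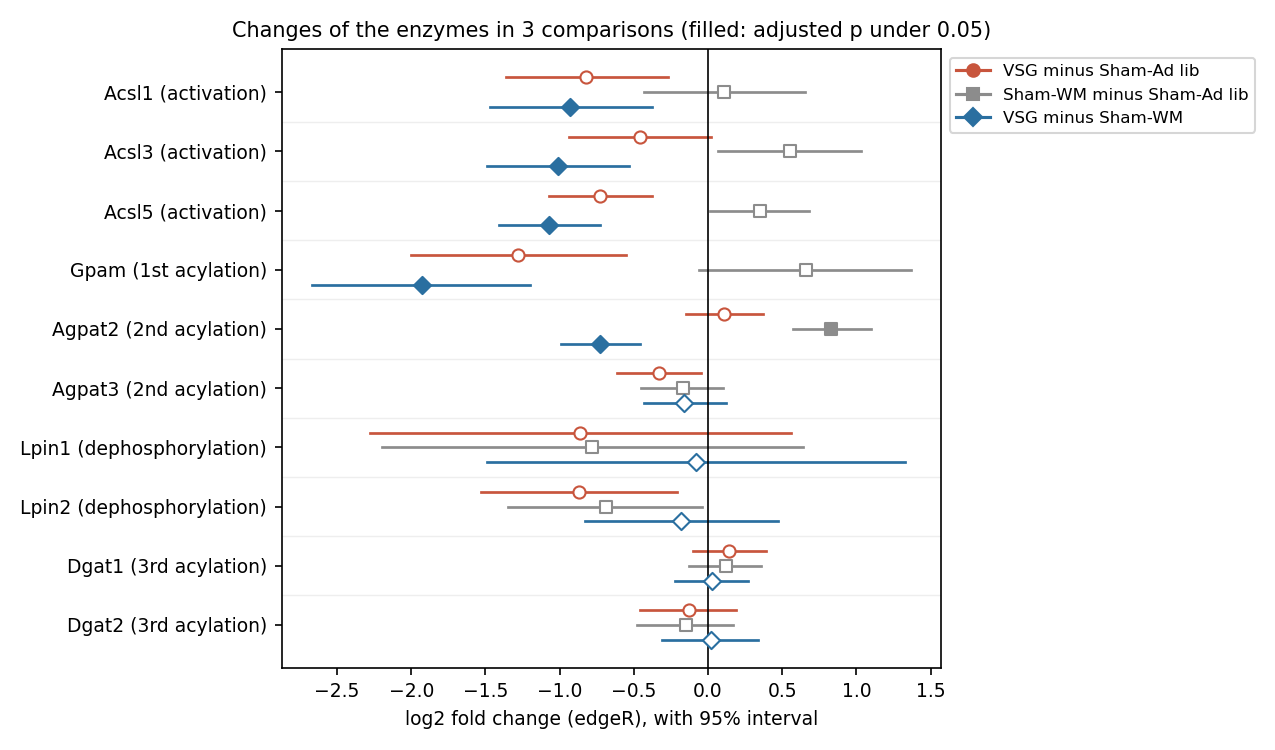
Log2 fold change (x axis) with its 95% interval (lines) for each enzyme (y axis, in pathway order) in 3 comparisons, fitted by edgeR to all 12 libraries, with filled symbols where the adjusted p was under 0.05. The 5 filled symbols for VSG minus Sham-WM belong to the acyl-CoA synthetases, Gpam and Agpat2, and the intervals of Lpin1 are the widest of the plot, from -1.49 to 1.33 between VSG and Sham-WM.

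Lipins are phosphatidate phosphatases, and lipin-1 also acts in the nucleus with regulators of fat oxidation and is raised by fasting in the liver. Lpin1 (ENSMUSG00000020593, chr12:16535669-16610966, - strand, mm10) had 419, 71.0, 63.7 and 101 CPM in Sham-WM mice 2F, 9F, 15F and 16F. The VSG mice 1F, 8F, 11F and 18F had 91.6, 111.3, 45.0 and 372 CPM, and the Sham-Ad lib mice 3F, 4F, 6F and 10F had 279, 364, 325 and 157 CPM. In each of the Sham-WM and VSG groups 1 mouse stood apart at a level above every Sham-Ad lib mouse, and the other 3 lay below every Sham-Ad lib mouse.

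The same mice stood out for Lpin2 (ENSMUSG00000024052, chr17:71182560-71249817, + strand, mm10), in which mutations cause an inflammatory syndrome in people. Its values were 394, 253, 228 and 181 CPM in Sham-WM mice 2F, 9F, 15F and 16F, and 188, 197, 167 and 379.6 CPM in VSG mice 1F, 8F, 11F and 18F. In Sham-Ad lib mice 3F, 4F, 6F and 10F it was at 520.1, 504, 433 and 250.1 CPM. Mouse 2F was the highest of Sham-WM and mouse 18F the highest of VSG for both lipins, and mouse 10F was the lowest of Sham-Ad lib for both.

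Neither lipin passed the edgeR test in any comparison. The highest Lpin1 value was 6.58 times the lowest in Sham-WM and 8.28 times in VSG, and the interval of its log2 fold change between VSG and Sham-WM ran from -1.49 to 1.33 (edgeR adjusted p = 0.941). Changes of this size could not be told from 0 with 4 mice a group. Without mouse 2F the log2 fold change of Lpin1 between VSG and Sham-WM was 0.98, and without mouse 18F it was -0.99. For Lpin2, VSG against Sham-Ad lib had a log2 fold change of -0.87 (SE 0.31) with an adjusted p of 0.116 in edgeR and 0.0419 in DESeq2, and Sham-WM against Sham-Ad lib had -0.69 (SE 0.3, edgeR adjusted p = 0.205). Without mouse 18F the Lpin2 fall in VSG against Sham-Ad lib passed, with an edgeR adjusted p of 0.0296.

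**Figure D3:**
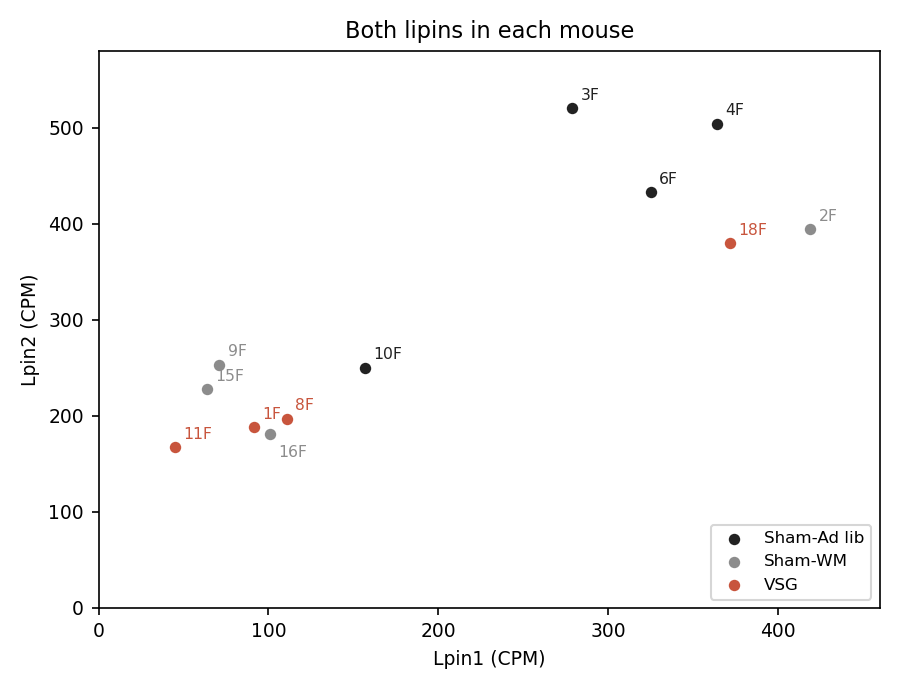
Lpin1 (x axis, CPM) against Lpin2 (y axis, CPM) in each of the 12 mice, coloured by group and labelled by mouse. Mice 2F (Sham-WM) and 18F (VSG) lie with 3 of the Sham-Ad lib mice at high values of both, and mouse 10F (Sham-Ad lib) lies nearer the other Sham-WM and VSG mice.

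Dgat1 and Dgat2 catalyse the last step, and Dgat2 is the enzyme tied to newly made fatty acids in liver. Dgat2 (ENSMUSG00000030747, chr7:99153658-99182719, - strand, mm10) was at 583, 643, 622 and 683 CPM in VSG mice 1F, 8F, 11F and 18F, and at 682, 626, 665 and 525 CPM in Sham-WM mice 2F, 9F, 15F and 16F. The Sham-Ad lib mice 3F, 4F, 6F and 10F had 688, 505, 811 and 769 CPM, and all 3 groups overlapped. The log2 fold change between VSG and Sham-WM was 0.02, with an interval of -0.31 to 0.34 (edgeR adjusted p = 0.941).

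Dgat1 (ENSMUSG00000022555, chr15:76502015-76511953, - strand, mm10) ranged from 14.6 to 21.2 CPM over the 12 mice, and its 3 groups overlapped too. Its log2 fold change was 0.03 between VSG and Sham-WM (interval -0.22 to 0.27, edgeR adjusted p = 0.88) and 0.14 between VSG and Sham-Ad lib (interval -0.1 to 0.39, edgeR adjusted p = 0.454). These intervals leave out a change of the size of Gpam or Acsl5 between VSG and Sham-WM for both Dgat genes. In counts per kilobase within a mouse, Dgat2 was 35.2 ± 4.91 times Dgat1 in VSG, 35.5 ± 6.7 times in Sham-WM and 41.9 ± 5.46 times in Sham-Ad lib (SD, n = 4). No ratio of Dgat2 to Dgat1, Lpin1 to Lpin2 or Acsl1 to Acsl5 passed the exact permutation test between groups (smallest adjusted p = 0.429, 12 tests with those of Agpat2 to Agpat3). Here too a single ratio could not pass after adjustment whatever its values, so not passing says nothing about a difference.

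**Figure D4:**
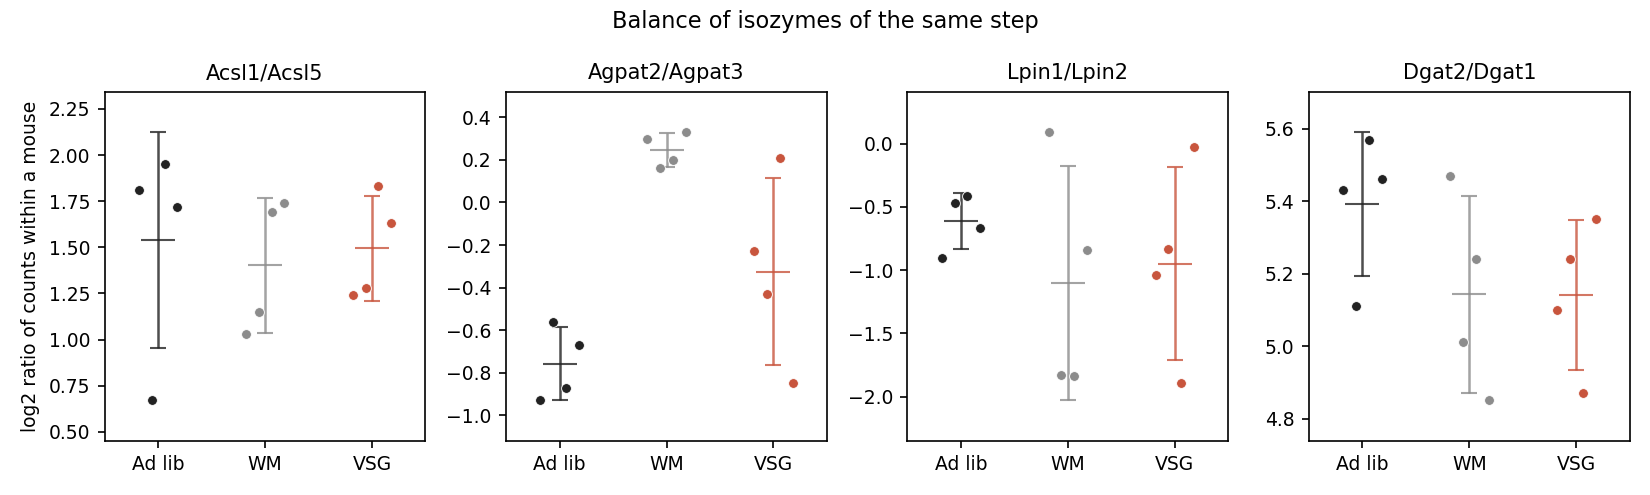
Log2 ratio of counts within each mouse (y axis, points) for isozymes of the same step, by group, with the mean and SD of 4 mice. Agpat2/Agpat3 is higher in all Sham-WM mice (0.16 to 0.33) than in all Sham-Ad lib mice (-0.93 to -0.56), and the groups overlap for the other pairs.

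Over the 10 enzymes as a group, the median log2 fold change between VSG and Sham-WM was -0.45, beside 0.03 over all genes tested, and 8 of 10 values were below 0. The groups did not overlap for 5 of 10 enzymes, beside 26.2% of all genes. For VSG against Sham-Ad lib the median was -0.59, beside 0.03 over all genes. In that comparison the 5 of 10 at an unadjusted p under 0.05 stood beside 24.1% of all genes, and the 4 of 10 that DESeq2 called, Acsl1, Acsl5, Gpam and Lpin2, beside 8.4%. The groups did not overlap for 2 of 10 (9.21% of all genes). For Sham-WM against Sham-Ad lib the median was 0.11, beside 0.0 over all genes, and 2 of 10 did not overlap (17.6%).

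On the scale of CPM per kilobase of exon, which allows genes to be compared, Dgat2 was the highest of the enzymes in each group, at 205 ± 13.4 in VSG, 203 ± 22.8 in Sham-WM and 225 ± 44.0 in Sham-Ad lib (SD, n = 4). In Sham-Ad lib it was followed by Acsl1 (138 ± 45.1), Acsl5 (97.0 ± 3.97) and Agpat2 (73.3 ± 4.57), and the ranges of Dgat2, Acsl1 and Acsl5 overlapped in turn. Lpin2, Agpat3, Lpin1 and Gpam came next at 34.9 to 27.1, each overlapping its neighbour. Acsl3 (7.89 ± 1.76) and Dgat1 (5.32 ± 0.425) were the lowest and overlapped. In Sham-WM, Agpat2 (131 ± 6.54) lay within the ranges of Acsl1 (148 ± 12.9) and Acsl5 (123 ± 27.7), and Gpam (42.8 ± 9.17) was above Agpat3 without overlap. In VSG, Gpam (11.2 ± 5.66) was the eighth of 10, with a range that reached those of Lpin1 above and Dgat1 below. Exons of all isoforms were counted in the length, and with the longest transcript in its place Dgat2 stayed first in all groups while several others changed places, among them Lpin2, which came above Gpam and Agpat3 in Sham-WM.

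**Figure D5:**
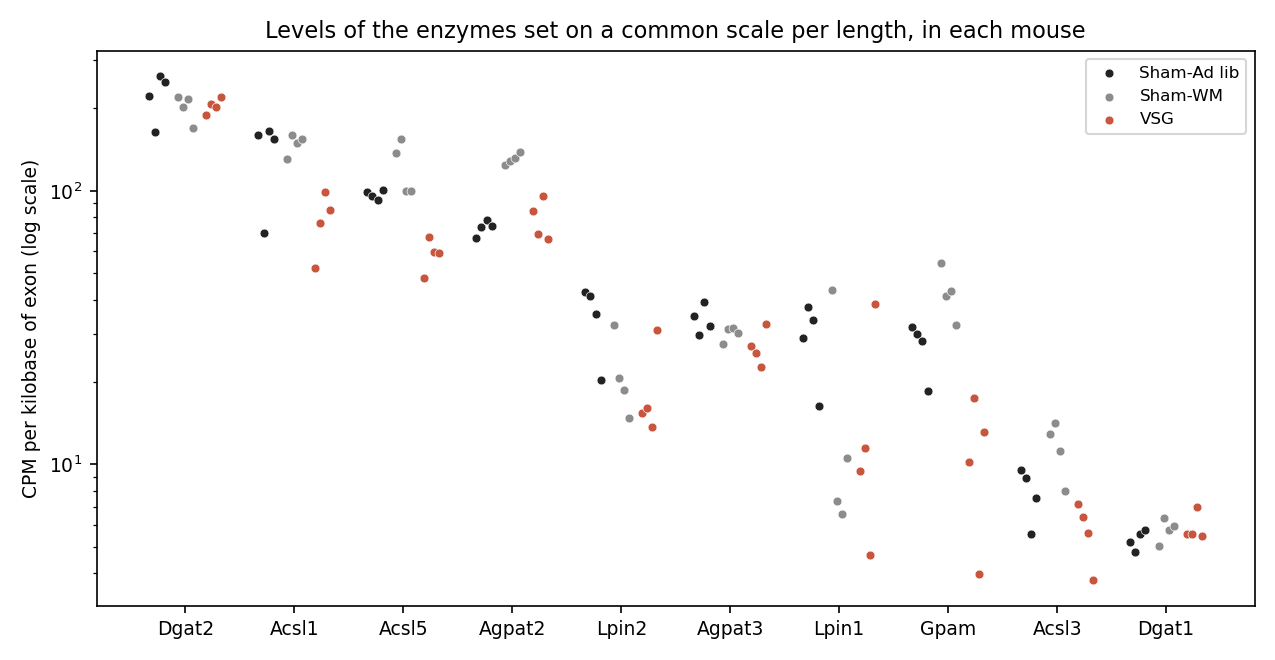
Level of each enzyme in each mouse (points) as CPM per kilobase of exon on a log scale (y axis), in order of the Sham-Ad lib mean (x axis), coloured by group. Dgat2 is at the top, at 164 to 263 in Sham-Ad lib, and Acsl3 and Dgat1 are at the bottom, at 3.76 to 14.2 and 4.78 to 6.95 over all mice.

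Another 24 genes act around the same steps, as isozymes, as suppliers of glycerol-3-phosphate and acyl-CoA, or as other phosphatases, and 22 of them had enough counts to be tested. Between VSG and Sham-WM, 3 rose and 3 fell, or 6 of 22 beside 26.9% of all genes. Plpp2, a lipid phosphate phosphatase of the cell surface, rose by 2.63-fold (25.3 ± 3.56 CPM in VSG, 9.62 ± 1.22 in Sham-WM, edgeR adjusted p = 0.000809). Slc27a1, a fatty acid transport protein with acyl-CoA synthetase activity, rose by 2.02-fold (edgeR adjusted p = 0.00727). Slc27a2, of the same family, rose by 1.52-fold (1637 ± 428 CPM in VSG, 1079 ± 78.4 in Sham-WM, edgeR adjusted p = 0.0326). Its level in VSG was above that of Acsl1, and its direction was opposite to the 3 Acsl enzymes. Acsl4, which prefers arachidonic acid, fell from 97.9 ± 9.47 CPM in Sham-WM to 49.4 ± 12.8 in VSG (edgeR adjusted p = 0.00304). Plpp1, another lipid phosphate phosphatase, fell by 1.76-fold (edgeR adjusted p = 0.0247), and Gpd1, which makes glycerol-3-phosphate, fell by 1.57-fold (edgeR adjusted p = 0.0298). The 22 genes had a median log2 fold change of 0.06, beside 0.03 over all genes tested.

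In Sham-WM against Sham-Ad lib, 2 of the 22 fell and none rose, beside 6.99% of all genes called. These were Slc27a1 (log2 fold change -0.93, edgeR adjusted p = 0.0267) and Plpp2 (log2 fold change -0.88, edgeR adjusted p = 0.018). EdgeR called none of the 22 in VSG against Sham-Ad lib, where 0.751% of all genes were called. At an unadjusted p under 0.05 there were 10 of 22, beside 24.1% of all genes. DESeq2 called 4, beside 8.4% of the genes it tested.

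The branch that turns phosphatidic acid and diacylglycerol into phospholipids was listed with 18 genes, of which 17 were tested. Chka, a choline kinase, stood at 55.7 ± 19.9 CPM in Sham-WM, 11.8 ± 1.2 in Sham-Ad lib and 15.2 ± 1.81 in VSG (SD, n = 4). It rose in Sham-WM against Sham-Ad lib by 4.72-fold (edgeR adjusted p = 7.13e-05) and was 3.67-fold lower in VSG than in Sham-WM (edgeR adjusted p = 0.000167). Selenoi, an ethanolamine phosphotransferase that uses diacylglycerol, also rose in Sham-WM (log2 fold change 0.67, edgeR adjusted p = 0.0459) and was lower in VSG than in Sham-WM (log2 fold change -0.96, edgeR adjusted p = 0.00328).

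Ptdss2, which makes phosphatidylserine, and Etnk2, an ethanolamine kinase, went the other way, with log2 fold changes of -0.55 and -0.62 in Sham-WM against Sham-Ad lib (edgeR adjusted p = 0.0264 and 0.0284). Between VSG and Sham-WM they were higher in VSG by 0.65 and 0.58 (edgeR adjusted p = 0.005 and 0.0168). Pcyt1a, which controls the rate of phosphatidylcholine synthesis, was 1.46-fold lower in VSG than in Sham-WM (edgeR adjusted p = 0.00666). In all, 3 of 17 rose and 4 fell in VSG against Sham-WM, beside 26.9% of all genes called. In Sham-WM against Sham-Ad lib 2 rose and 2 fell, beside 6.99%. EdgeR called none in VSG against Sham-Ad lib, beside 0.751%. There 3 of 17 were at an unadjusted p under 0.05, beside 24.1% of all genes, and DESeq2 called 1, beside 8.4% of the genes it tested. The median of the 17 between VSG and Sham-WM was -0.08.

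The genes most like Gpam, Acsl3 and Acsl5 over the 12 mice were those with the smallest root mean square difference of log2 CPM, each gene centred on its own mean. For Acsl5 they were Sc5d, an enzyme of cholesterol synthesis (difference 0.16), Ces1e, a carboxylesterase (0.18), and Echdc1 (0.18), against a median of 0.57 over all genes. For Acsl3 they were Zfand4 (0.25), Gas2l3 (0.26) and Mid1ip1 (0.26), the last a regulator of acetyl-CoA carboxylase. For Gpam they were Sparcl1 (0.33), Gdf6 (0.34) and Ccbe1 (0.37), against a median of 1.07. Their levels were low, with group means of 3.42 to 9.07 CPM for Sparcl1, 0.426 to 1.22 for Gdf6 and 2.26 to 5.58 for Ccbe1. Those of Gpam were 74.5 to 285 CPM. Among the enzymes themselves the closest pair was Agpat3 and Dgat2 (0.2), and Acsl3 and Acsl5 (0.34) were the closest among those that fell in VSG against Sham-WM. The difference is not scaled to how much a gene varies, so genes that vary little come out close whatever their pattern.

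The livers also differed in the RNA of other cells. Between VSG and Sham-WM all 10 markers of Kupffer cells and macrophages rose, and their summed level was 699 to 2128 CPM in VSG, 181 to 301 in Sham-WM and 206 to 688 in Sham-Ad lib. All 7 tested neutrophil markers rose too (25.7 to 735 CPM in VSG, 2.66 to 3.82 in Sham-WM and 1.35 to 19.3 in Sham-Ad lib, with Ly6g at 0 in both sham groups), as did 12 of 14 acute phase genes. The acute phase genes summed to 21744 to 90911 CPM in VSG, 12783 to 15269 in Sham-WM and 13124 to 48214 in Sham-Ad lib. Against Sham-Ad lib 0 of these 14 were called in VSG (0.751% of all genes), and 3 were called lower in Sham-WM (6.99% called in either direction). Markers of hepatocytes, the cells that hold most of the pathway, summed to 88559 to 132953 CPM in VSG, 131858 to 163634 in Sham-WM and 112361 to 135188 in Sham-Ad lib. Most of each sum was Alb, at 64000.2 ± 18216 CPM in VSG, 106082 ± 12308 in Sham-WM and 84801 ± 7213 in Sham-Ad lib. The sums therefore mainly follow this 1 transcript. Of these 10 markers 2 fell in VSG against Sham-WM, Alb and Cps1. The log2 fold change was above 0 for 4 and below 0 for 6, with a median of -0.15 over the 10. Adipocyte markers summed to no more than 95.7 CPM, with Lep at 0 in every library. Adipoq, Plin1, Retn and Slc7a10 had group means of no more than 0.0188 CPM and were not tested. Most of the sum in VSG was Lpl, at 53.8 ± 17.3 CPM there and 19.7 ± 2.17 in Sham-WM. Of the 5 adipocyte markers tested, 2 rose in VSG against Sham-WM, Lpl by 2.72-fold (edgeR adjusted p = 0.0159) and Adrb3 by 2.77-fold (edgeR adjusted p = 0.00611). Cidea had a log2 fold change of -1.13 (edgeR adjusted p = 0.363). Cfd, with 0.347 ± 0.298 CPM in Sham-WM, 1.08 ± 0.749 in VSG and 7.78 ± 2.13 in the Sham-Ad lib mice, fell in both against Sham-Ad lib (edgeR adjusted p = 0.000877 and 0.0435). The part of these shifts in the fall of the 5 enzymes was not tested, and in whole liver fewer cells of a type cannot be told apart from less RNA per cell.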

How the data were processed

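Gene counts of liver poly(A) libraries (directional kit) were analysed for 12 mice, 4 in each group, with the group taken from the animal number shared by a library's name and a sample's title. The deposited values are whole-number counts per Ensembl gene, neither normalized nor corrected. Per the labels, the authors aligned reads to mm10 with TopHat2 2.1.1 and counted them with featureCounts. The strand setting and the annotation release are not given in the sources used here. Symbols, positions and exon lengths came from GENCODE vM21.

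Genes were kept with edgeR's filterByExpr (minimum count 10, minimum total 15), which left 13054 of 46078 genes and at least 99.88% of each library's counts. A model with a mean per group, TMM scaling and all 12 libraries gave the 3 contrasts by edgeR's quasi-likelihood test (R 4.3.3, edgeR 4.0.16). Benjamini-Hochberg adjustment ran over all genes tested, with calls at 0.05. CPM are TMM-normalized. Isozyme ratios were compared as log2 ratios of counts (0.5 added) within a library by exact permutation tests, two-sided, adjusted over 12 tests. The fit was tested on simulated data with the same dispersion for every gene. That test does not cover genes that varied more between mice, such as Lpin1 and Gpam.

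The enzymes and the gene lists were chosen with earlier results of these data known. Named are all 10 enzymes, up to 5 called genes of each further list and comparison with the largest change, and the 3 genes most like each of the 3 enzymes with the largest change between VSG and Sham-WM. Gpat2, Gpat3, Gpat4 and Slc27a2 are named besides these. Genes that overlap an enzyme, and those between Gpam and Acsl5, were also looked up. Further markers were listed for B, T and NK cells (4 of 7 tested rose in VSG against Sham-WM), stellate cells (3 of 8 fell), sinusoidal endothelial cells (2 of 8 fell), bile duct cells, red blood cells and pancreas (no gene called).

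Also run were DESeq2 1.42.0, edgeR with DESeq2 size factors or upper quartile scaling, edgeR unfiltered or with 10 counts required in all libraries, a fit of the compared groups alone, 2 factors of unwanted variation by the RUVr or RUVs method (written out from their definitions), grouping by the second label, and leaving out each library. Libraries held 15122520 to 19384076 counts.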

Additional observations from a re-analysis of the deposited data

Results flagged for a closer look

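In 4 of 42 groups of 4 values examined, 1 mouse stood far from the other 3, with a gap to its nearest neighbour that, as a share of the whole range, was above Dixon's 95% critical value for 4 samples. Chance alone flags about 1 in 20 groups. Sham-Ad lib mouse 4F was low for Acsl1, at 737 CPM (0.891 of the range). Sham-WM mouse 2F was high for Lpin1, at 419 CPM (0.894). VSG mouse 18F was high for Lpin2, at 379.6 CPM (0.858). VSG mouse 11F was high for Dgat1, at 21.2 CPM (0.938), and this library also had the lowest TMM factor, 0.879.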

How the results depend on the processing

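The 5 enzymes called lower in VSG than in Sham-WM were the same 5 with DESeq2, DESeq2 size factors, upper quartile normalization, no filter, a filter of at least 10 counts in every library, only the 2 groups in the fit, and 2 RUVr factors. Over these settings the share of all genes called ran from 14.3% (no filter) to 42.1% (RUVr factors), beside 26.9% in the main fit. With 2 RUVs factors 4 were called, without Acsl1 (524 of all genes, 4.01%). Without each library in turn 4 to 5 were called, with Acsl1 lost without VSG mouse 1F (16.5% to 29.1% of all genes). For Sham-WM against Sham-Ad lib, Agpat2 was called in every one of these fits. RUVr and RUVs factors each raised the count of called enzymes to 2, with Gpam and Acsl3 added in turn. They also raised the share of all genes called, from 6.99% to 16.6% with RUVr and 13.2% with RUVs. The count of 0 for VSG against Sham-Ad lib, with 98 of all genes called, depended on the setting. It was 4 with DESeq2 (Acsl1, Acsl5, Gpam and Lpin2; 1227 of all genes), 1 with DESeq2 size factors (Acsl5; 127 genes), 3 without a filter (Acsl1, Acsl5 and Gpam; 628 genes) and 5 with RUVr factors (those of DESeq2 and Agpat3; 3031 genes). It stayed 0 with RUVs factors (8 genes), upper quartile normalization (80 genes), 10 counts in every library and only the 2 groups in the fit (0 genes each). Without a library it ranged from 0 to 3, at 2 without Sham-Ad lib mouse 4F (Acsl1 and Acsl5; 903 genes), 2 without VSG mouse 8F (Acsl5 and Gpam; 227 genes) and 3 without VSG mouse 18F (Acsl5, Gpam and Lpin2; 1089 genes). Without any other library 0 to 69 of all genes were called. The causes were not tested.

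Grouping by the second label gave 0 called enzymes in all 3 comparisons. Under it the log2 fold change turned sign for VSG against Sham-Ad lib in Acsl3 (0.05), Gpam (0.17), Agpat2 (-0.37), Agpat3 (0.07), Lpin1 (1.66), Lpin2 (0.84), Dgat1 (-0.20) and Dgat2 (0.03). It turned sign for Sham-WM against Sham-Ad lib in Acsl1 (-0.24), Agpat2 (-0.34), Agpat3 (0.11), Lpin1 (1.25), Lpin2 (0.75), Dgat1 (-0.13) and Dgat2 (0.00), and for VSG against Sham-WM in Lpin1 (0.42), Lpin2 (0.10) and Dgat1 (-0.07). The log2 ratio of Dgat2 to Dgat1 turned to 0.23 for VSG and 0.13 for Sham-WM against Sham-Ad lib and to 0.11 for VSG against Sham-WM. That of Lpin1 to Lpin2 turned to 0.84 for VSG and 0.43 for Sham-WM against Sham-Ad lib, and that of Agpat2 to Agpat3 to -0.44 in both.

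The other changes of sign were in values near 0 or with a wide interval, none of them called. With RUVs factors the log2 fold change was -0.03 for Agpat2 and 0.07 for Dgat2 in VSG against Sham-Ad lib, and 0.18 for Agpat3, 0.35 for Lpin1 and 0.22 for Lpin2 in VSG against Sham-WM. In the latter comparison DESeq2 gave -0.00 for Dgat1 and -0.01 for Dgat2, and no filter gave -0.00 for Dgat2. Leaving out 1 library moved the log2 fold change of VSG against Sham-WM between -0.99 and 0.98 for Lpin1, -0.52 and 0.08 for Lpin2, -0.06 and 0.07 for Dgat1, and -0.06 and 0.06 for Dgat2. It moved Agpat2 in VSG against Sham-Ad lib between -0.01 and 0.18, and Acsl1 in Sham-WM against Sham-Ad lib between -0.11 and 0.21. For the isozyme ratios, leaving out 1 library moved Acsl1/Acsl5 between -0.33 and 0.10 (VSG against Sham-Ad lib), -0.42 and 0.00 (Sham-WM against Sham-Ad lib) and -0.03 and 0.21 (VSG against Sham-WM). In VSG against Sham-WM it moved Dgat2/Dgat1 between -0.10 and 0.10 and Lpin1/Lpin2 between -0.15 and 0.56. Adding 5 in place of 0.5 to the counts changed no call of a ratio, where a single ratio could not pass whatever its values. No paired analysis was possible because the animal numbers of the groups do not overlap.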
